A study of Mus musculus with 6 samples.

Results

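The aminoacyl-tRNA synthetase genes were examined in bone marrow cells of male and female mice. The members were the genes of the count table whose symbol names a synthetase on a fixed list of 36, and all 36 were among the 21606 genes of the table. They comprised 20 cytosolic and 16 mitochondrial members, assigned by textbook knowledge of where the enzyme works. Each was followed in 3 male and then 3 female libraries of C57BL/6 mice, a common inbred strain, with the genotype given as WT and no age given. All libraries came from marrow cells with high activity of aldehyde dehydrogenases (ALDHbr cells), a property used to enrich progenitor cells. RNA was counted by BRB-seq, a bulk method that barcodes each sample at the poly(A) end and amplifies the samples as a pool. Separate animals are not named in the labels for the replicates, so a p-value here reflects library-to-library spread that may be technical.

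An aminoacyl-tRNA synthetase joins an amino acid to its transfer RNA, the step at which the genetic code is read into protein building blocks. The cytosol and the mitochondrion mostly use enzymes from separate nuclear genes, although Gars (glycine) and Kars (lysine) serve both compartments. The enzymes fall into 2 structural families, class I and class II, and 8 cytosolic members, counting the glutamate and proline enzyme Eprs once, belong to a multi-synthetase complex held together by scaffold proteins. When amino acids run short or unfolded protein builds up, kinases acting on the initiation factor eIF2 raise the transcription factor ATF4, and several cytosolic synthetase genes are among its known targets. Rapidly dividing marrow progenitors make much protein and depend on a steady supply of charged tRNA.

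The promoter sequences of 5 cytosolic members are shown first, because they hold an element that ATF4 is known to bind and the values of these genes are compared with those of Atf4. RefSeq windows of 300 bases, from 250 bases before to 50 bases after the annotated start, were matched for 27 of the 36 members, 13 cytosolic and 14 mitochondrial. The C/EBP-ATF composite element was searched as TGATGNAA on both strands. It was present for 5 of the 13 cytosolic members and for 0 of the 14 mitochondrial members, against 1304 of 32851 windows over all genes (3.97%). Members were counted by gene and the share over all genes by window, here and for the other motifs. The 5 genes were Aars (alanine), Gars (glycine), Iars (isoleucine), Tars (threonine) and Yars (tyrosine). Each sequence is given 5′ to 3′ on the strand of the gene, from RefSeq (GRCm38.p6), with the element in capitals; TTGCATCA and TTTCATCA are the element read on the opposite strand. Aars lies at chr8:111033690-111033777 (+), Gars at chr6:55037931-55038000 (+), Iars at chr13:49682126-49682155 (+), Tars at chr15:11399659-11399713 (-) and Yars at chr4:129189895-129189924 (+).
Aars: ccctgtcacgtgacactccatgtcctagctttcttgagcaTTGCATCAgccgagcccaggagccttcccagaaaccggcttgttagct
Gars: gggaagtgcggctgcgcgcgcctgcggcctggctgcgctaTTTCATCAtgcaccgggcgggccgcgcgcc
Iars: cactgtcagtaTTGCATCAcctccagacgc
Tars: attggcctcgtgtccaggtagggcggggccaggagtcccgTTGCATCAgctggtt
Yars: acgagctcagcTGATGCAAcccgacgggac

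The element began 112 bases before the start in Aars, 30 bases before it in Gars and 15 bases before it in Tars, while in Iars and Yars it lay within the first 15 transcribed bases of the window. Aars held a further match, TGATGAAA on the opposite strand, from base 10 to base 17 after the start. Other promoter letters were spread over both compartments. The ETS site CCGGAAG was found for 5 cytosolic and 4 mitochondrial members (8.86% of all windows), the NRF1 site for 3 and 2 (4.6%), and the E-box CACGTG for 4 and 1 (7.15%). The CCAAT box was found for 7 and 6 (37.4%) and the GC box GGGCGG for 8 and 11 (35.7%). All were searched on both strands. An interferon response element was matched in the glutamine enzyme Qars (3.44% of all windows) and in no other member. A match is a description of the letters and not a bound site.

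Depth sets what can be seen for genes at these levels. Total counts per library ran from 679724 to 1475224 and averaged 799185 ± 105598 in males and 1320028 ± 141078 in females (SD, n = 3 each). Of the table's genes 8460 passed the filter on low counts and were tested, among them all 20 cytosolic members and 14 of the 16 mitochondrial ones. All 10 myeloid progenitor markers were detected and tested, with means from 70.0 CPM for Kit to 6986 CPM for Mpo, and 0 passed. Mpo had 6656, 6216 and 6124 CPM in males and 7423, 7625 and 7870 CPM in females, all males below, while Flt3 had 104, 99.8 and 90.4 CPM in males and 78.9, 75.9 and 71.6 CPM in females, all males above. Of 8 erythroid markers 2 were tested, Car1 and Car2, and both were higher in males, and the list summed to 283, 348 and 214 CPM in males, against 91.8, 88.7 and 109 CPM in females. Lung epithelial markers, listed for cells not in marrow, summed to 524, 822 and 583 CPM in males and to 576, 564 and 471 CPM in females. The highest of these markers was Napsa, with 295, 364 and 351 CPM in males and 371, 383 and 326 CPM in females (log2 fold change -0.10). Of the 6 tested, 5 had log2 fold changes above 0, with a median of 0.76; Sftpc (0.92), Sftpb (0.92) and Sftpd (1.14) had every male library above every female one, highest in male replicate 2, and none passed after adjustment. The pooled library of 16 samples also held 10 lung samples. Of the plasma cell markers 7 were tested and 0 passed, with 1 log2 fold change above 0 and 6 below and a median of -0.15. This list summed to 1062, 1251 and 1291 CPM in males and 1276, 1313 and 1315 CPM in females, which overlapped. Of the T and natural killer cell markers only Nkg7 could be tested and it did not pass. The part of these cell types in the results was not tested, except that results were refitted without each library. Male replicate 1 had a mean correlation of log2 CPM of 0.953 with the other males and of 0.963 with the females. The same values were 0.949 and 0.941 for male replicate 2, the lowest of all libraries, and 0.958 and 0.958 for male replicate 3. Results that turn on male replicate 1 are given with and without it.

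Cytosolic synthetases were the more abundant set in every library. CPM are counts per 1e+06 of the tested genes' counts after TMM scaling (trimmed mean of M values), which corrects for unequal composition. Summed over the 20 cytosolic members, the level was 2180, 2330 and 2286 CPM in the male libraries and 2246, 2293 and 2480 CPM in the female ones. The 16 mitochondrial members together gave 440, 451 and 430 CPM in males and 436, 429 and 443 CPM in females. The ranges of both sums overlapped between the sexes. The ratio of the cytosolic to the mitochondrial sum was 4.95, 5.17 and 5.31 in males and 5.16, 5.35 and 5.603 in females, with means of 5.15 ± 0.18 and 5.37 ± 0.22 (SD, n = 3 each). Over all 6 libraries it averaged 5.26, or 5.99 per kilobase of exon and 4.48 without Gars and Kars, which serve both compartments. In bulk RNA, fewer cells of a type and less RNA per cell cannot be told apart.

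**Figure D1:**
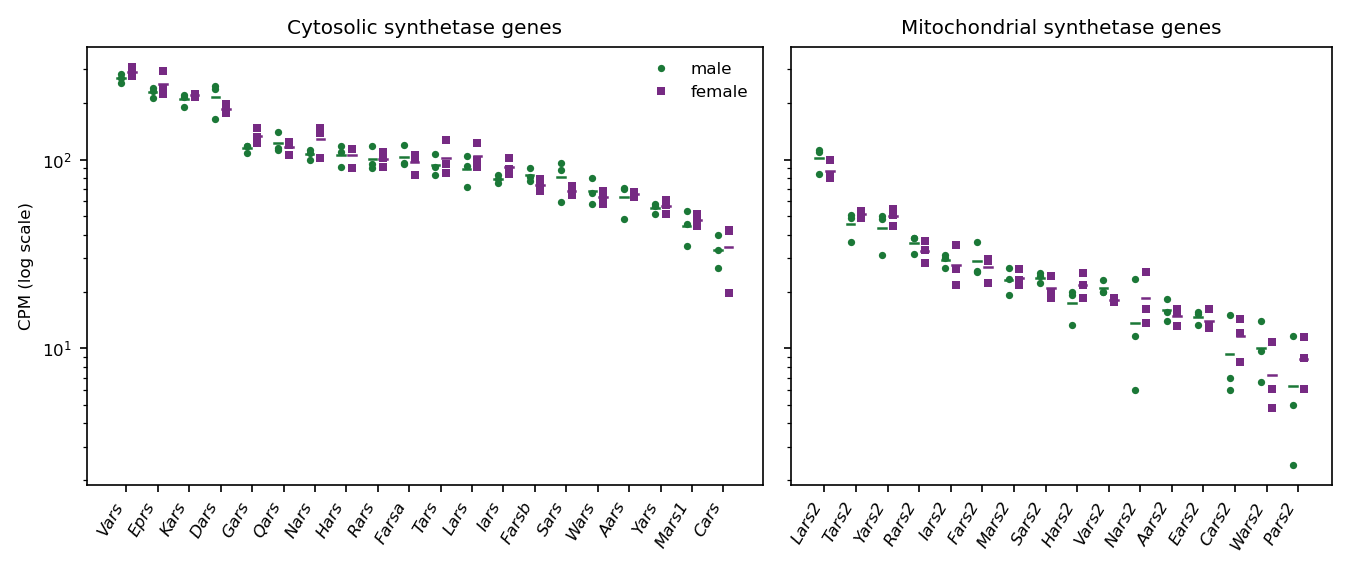
Level of each of the 36 synthetase genes in CPM on a log scale, for cytosolic genes (left panel) and mitochondrial genes (right panel), ordered by mean level. Points are libraries (3 male, drawn left, and 3 female, drawn right) and short bars are means of 3; Vars leads the cytosolic set at a mean of 281 CPM, Lars2 leads the mitochondrial set at 94.6 CPM, and male and female libraries overlap for all but 3 genes.

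The 4 most abundant cytosolic enzymes carried much of the set: the valine, glutamate-proline, lysine and aspartate synthetases, with 40.6% of its summed CPM. Vars, which charges valine tRNA, had 255, 271 and 284 CPM in males and 275, 310 and 291 CPM in females. Eprs, the fused enzyme for glutamate and proline, had 232, 211 and 240 CPM in males and 241, 223 and 295 CPM in females. Kars, the lysine enzyme of both compartments, had 214, 220 and 190 CPM in males and 215, 223 and 223 CPM in females. For all 3 genes the libraries of the sexes overlapped. The male minus female log2 fold changes were -0.11 ± 0.12 for Vars, -0.15 ± 0.13 for Eprs and -0.09 ± 0.12 for Kars (± SE), and none passed edgeR's quasi-likelihood test after Benjamini-Hochberg adjustment (adjusted p = 0.793, 0.733 and 0.853).

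Set per kilobase of exon, the order among cytosolic members shifted. Reads here come from the 3′ ends of transcripts, so counts are not expected to grow with length, and both scales are given. Vars remained the highest at 50.1 CPM per kb, followed by Kars at 47.99, Dars (aspartate) at 45.9, Hars (histidine) at 43.4 and Gars at 39.8 CPM per kb. Eprs, whose merged exons are the longest of the cytosolic set, ranked 18 of 36 with 13.3 CPM per kb. The lowest cytosolic level in CPM belonged to the cysteine enzyme Cars, at a mean of 33.9 CPM over the 6 libraries, so the highest cytosolic level was 8.28 times the lowest.

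Lars2, the mitochondrial leucine enzyme, stood apart from its compartment with 21.6% of the mitochondrial sum in CPM. It had 83.9, 110 and 112 CPM in males and 82.1, 79.9 and 100 CPM in females. Next came Tars2 (threonine) with 48.9, 36.6 and 50.6 CPM in males and 49.1, 52.2 and 53.1 CPM in females. Yars2 (tyrosine) had 50.1, 48.2 and 31.3 CPM in males and 50.7, 54.9 and 44.6 CPM in females. Libraries of the sexes overlapped for each of these genes, and their log2 fold changes of 0.21 ± 0.15 for Lars2, -0.16 ± 0.18 for Tars2 and -0.23 ± 0.20 for Yars2 did not pass edgeR's quasi-likelihood test (adjusted p = 0.642, 0.814 and 0.724). Per kilobase Yars2 was the highest mitochondrial member, at 14.8 CPM per kb, and Lars2 had 8.53 CPM per kb.

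The compartments overlapped in level. In CPM, 4 mitochondrial members lay above the lowest cytosolic member and 8 cytosolic members lay below Lars2; per kilobase these counts were 5 and 6. The median cytosolic member had 99.1 CPM and the median mitochondrial member 20.9 CPM, a ratio of 4.74, which was 5.47 per kilobase. At the low end, Pars2 (proline) and Wars2 (tryptophan) did not pass the filter. Pars2 had 10, 3 and 2 counts in males and 11, 9 and 15 in females, and Wars2 had 12, 4 and 8 counts in males and 6, 9 and 14 in females. With no filter, Pars2 had a log2 fold change of -0.44 ± 0.45 and Wars2 one of 0.50 ± 0.41, with an adjusted p of 0.761 for both by edgeR's quasi-likelihood test.

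For 16 pairs of a cytosolic and a mitochondrial enzyme of the same amino acid, the ratio of the 2 levels was taken in each library, which leaves out any scaling of libraries. The cytosolic member was higher in all 6 libraries in 15 pairs, and per kilobase its mean level was higher in 15 pairs. The exceptions differed. In CPM the exception was leucine, with a mean Lars to Lars2 ratio of 1.04. Per kilobase it was tyrosine, with a Yars to Yars2 ratio of 0.656, while the ratio in CPM was 1.24. The median pair had a ratio of 3.71 in CPM, and the highest was 41.8 for Eprs over Pars2, which rests on 2 Pars2 counts in male replicate 3.

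**Figure D2:**
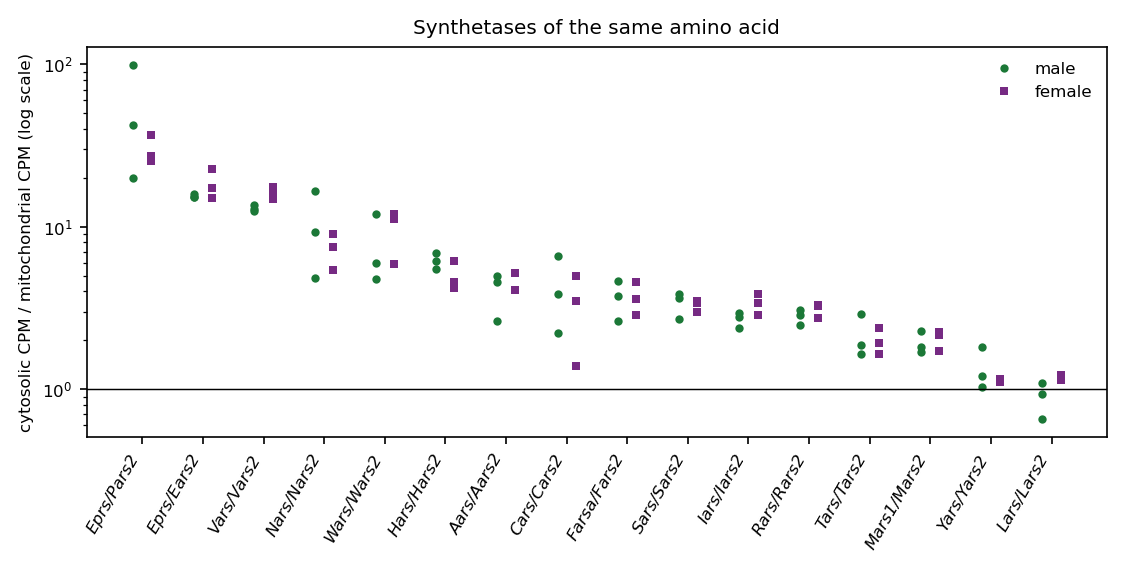
Ratio of the cytosolic to the mitochondrial synthetase of the same amino acid in each library, in CPM over CPM on a log scale, for 16 pairs ordered by mean ratio. Points are libraries (3 male, drawn left, and 3 female, drawn right) and the line marks equal levels; all points lie above it except 2 male libraries of the leucine pair.

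In the leucine pair the ratio was 1.10, 0.652 and 0.935 in males and 1.22, 1.14 and 1.22 in females. All male values lay below all female values, and 2 male libraries held more Lars2 than Lars. The valine pair, Vars over Vars2, behaved alike in direction, with 12.9, 13.6 and 12.4 in males and 14.9, 17.6 and 16.4 in females. The differences in mean log2 ratio were -0.45 and -0.33, male minus female. A two-sided exact permutation test gave p = 0.1 for each, the smallest p that 3 against 3 libraries allow. Any pair without overlap between the sexes gets this p, so it adds nothing to the layout. The other pairs overlapped between the sexes, so 2 of the 16 did not, both with males below; for levels of single genes, 7.57% of all tested genes had all males above and 8.03% all males below, so such a layout is not rare here.

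No synthetase passed the test between the sexes. Of the 34 tested members 0 were called higher and 0 lower in males at an adjusted p under 0.05 by edgeR's quasi-likelihood test, against 0.579% of all tested genes called in either direction (0.426% higher and 0.154% lower). At an unadjusted p under 0.05 the count was also 0 of 34, against 11.3% of all tested genes, and with DESeq2 it was 0 at either threshold. It was also 0 after adjustment without male replicate 2, the library with the highest lung marker sum (lowest adjusted p = 0.688), and without male replicate 1 (lowest adjusted p = 0.0779), in each case with edgeR's quasi-likelihood test. The adjusted p ran from 0.489 for Nars to 0.986. In other fits with edgeR's quasi-likelihood test, an unadjusted p under 0.05 was reached by Nars and Gars with library size only. Nars also reached it with no filter and without female replicate 1. Of all tested genes 12%, 6.31% and 8.94% did so in those fits. The members that did so without male replicate 1 are named below. The median log2 fold change, male minus female, was -0.04 over the cytosolic members, with 7 above and 13 below 0. Over the tested mitochondrial members it was 0.07, with 8 above and 6 below, and over all tested genes it was 0.00 to 2 decimals.

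**Figure D3:**
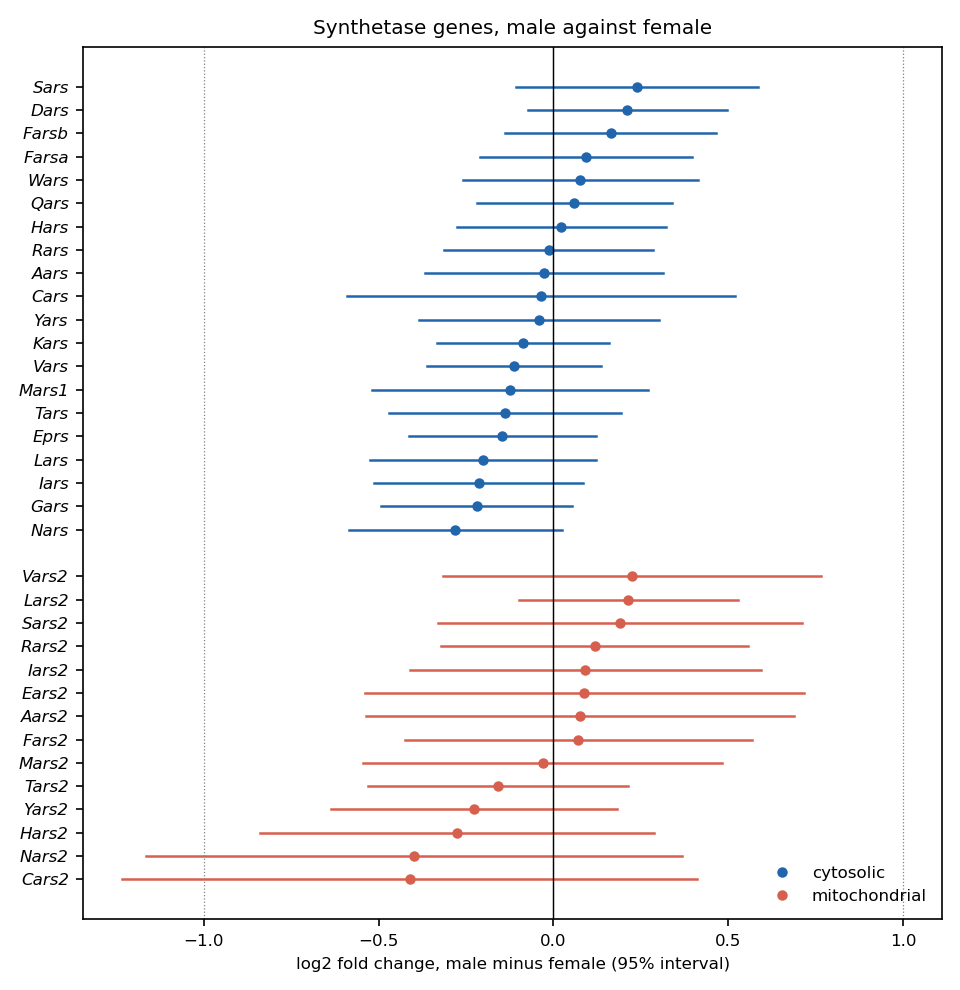
Log2 fold change, male minus female, of the 34 tested synthetase genes with 95% intervals from edgeR's quasi-likelihood fit, cytosolic genes above and mitochondrial genes below, each ordered by fold change. The solid line marks no difference and the dotted lines a 2-fold difference; every interval covers 0, and 32 of the 34 lie within the dotted lines.

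The intervals say how large a difference these data leave room for. All 34 covered 0. For all 20 cytosolic members the 95% interval lay within a 2-fold difference in either direction, and for 18 of them within 1.5-fold, with ends from -0.59 to 0.58 on the log2 scale. For the mitochondrial members 12 of 14 intervals lay within 2-fold and 5 within 1.5-fold, with ends from -1.23 to 0.76. The median standard error was 0.15 over cytosolic and 0.25 over mitochondrial members. The counts differed too: the median count per library was 94 for a cytosolic member (20 to 457) and 22 for a mitochondrial one (2 to 130). Within a sex, the coefficient of variation across libraries had a median of 12.8% for cytosolic members, where counting error alone gives 10.4%, and of 13.7% for mitochondrial members, where counting error alone gives 21.4%. In 10 of the 14 tested mitochondrial members and 6 of the 20 cytosolic members, the libraries of a sex varied less than counting error. A spread taken from 3 libraries a sex is itself uncertain, and whether it differed from counting error was not tested.

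**Figure D4:**
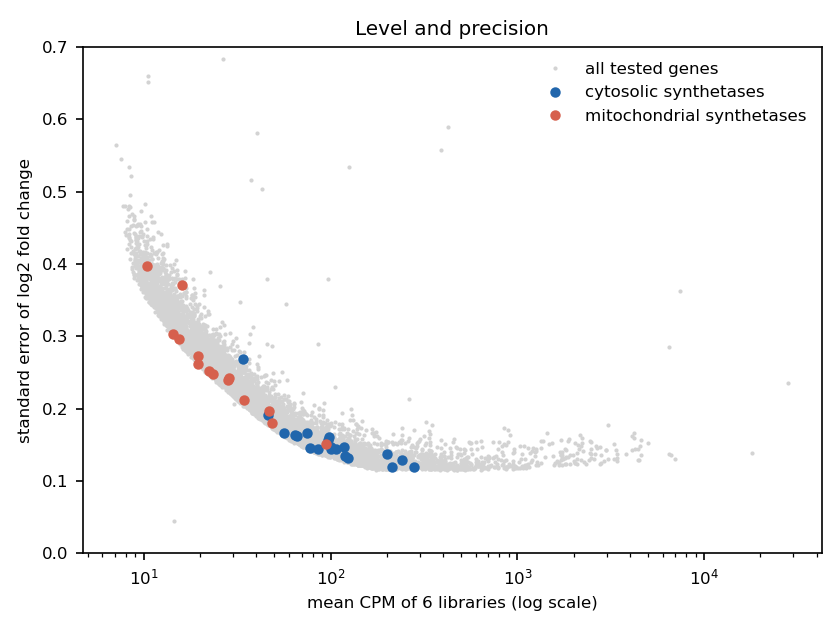
Standard error of the log2 fold change, male minus female, against the mean CPM of the 6 libraries (log scale) for all 8460 tested genes in grey, the cytosolic synthetases in blue and the mitochondrial synthetases in red. The mitochondrial genes lie at lower levels and larger errors, with a median standard error of 0.25 against 0.15 for the cytosolic genes.

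The 4 cytosolic members with the smallest p were Nars, Gars, Dars and Iars. Nars, the asparagine enzyme, had 112, 108 and 100 CPM in males and 102, 147 and 138 CPM in females. Female replicate 1 lay among the males and the other 2 females above them. The log2 fold change was -0.28 ± 0.15 (adjusted p = 0.489, edgeR's quasi-likelihood test). Gars had 108, 118 and 118 CPM in males and 131, 122 and 148 CPM in females, and Iars had 79.2, 83.2 and 74.7 CPM in males and 101, 84.0 and 89.3 CPM in females. In both genes every male library lay below every female one, in Iars with 83.2 CPM in the highest male and 84.0 CPM in the lowest female. Their log2 fold changes were -0.22 ± 0.13 for Gars and -0.21 ± 0.14 for Iars (adjusted p = 0.557 and 0.617 by the same test). A processed pseudogene, Gm4849, is 96.0% identical to an Iars transcript over 1656 bases that end 1090 bases before the 3′ end of that transcript.

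Dars, of the multi-synthetase complex, had 164, 236 and 245 CPM in males and 177, 181 and 196 CPM in females. Male replicate 1 lay below all females and the other males above them. With all libraries the log2 fold change was 0.21 ± 0.14 (adjusted p = 0.596), and without male replicate 1 it was 0.38 (adjusted p = 0.0779), both by edgeR's quasi-likelihood test. The serine enzyme Sars, named after its values were seen, had the same layout, with 59.4, 96.5 and 88.0 CPM in males and 72.5, 66.4 and 64.6 CPM in females. Its log2 fold change was 0.24 ± 0.17 with all libraries and 0.44 without male replicate 1 (adjusted p = 0.638 and 0.138 by the same test). Without that library Lars2 stood at 0.35 and Nars2 at -1.12, and 4 members (Dars, Sars, Lars2 and Nars2) had an unadjusted p under 0.05, against 16.5% of all tested genes in the same fit; none passed after adjustment.

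Among mitochondrial members Lars2, Yars2, Nars2 and Cars2 had the smallest p. Nars2, the asparagine enzyme, had 23.3, 11.6 and 6.02 CPM in males and 13.7, 16.3 and 25.4 CPM in females, and male replicate 3 held 5 counts. Cars2, the cysteine enzyme, had 6.99, 14.97 and 6.02 CPM in males and 12.1, 14.2 and 8.47 CPM in females. The libraries overlapped in both, and their log2 fold changes of -0.40 ± 0.37 and -0.41 ± 0.40 did not pass edgeR's quasi-likelihood test (adjusted p = 0.755 and 0.772). Vars2, the valine enzyme, was the member whose males all lay above the females, with 19.8, 19.96 and 22.9 CPM in males and 18.5, 17.6 and 17.7 CPM in females. These values rest on 17, 12 and 19 counts in males and 23, 26 and 23 counts in females, and the log2 fold change was 0.22 ± 0.26 (adjusted p = 0.825, same test). In all, 1 of the 34 members lay wholly above in males and 2 wholly below, against 7.57% and 8.03% of all tested genes.

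Cars2 shares 422 exon bases with Naxd on the opposite strand, which had 338 counts over the 6 libraries, and Vars2 shares 465 with the antisense gene Gm20483. Iars2 (isoleucine) shares 2034 bases with Rab3gap2 on the opposite strand (245 counts), and Aars shares 1326 bases on its own strand with Exosc6. Altogether 13 members share exon bases with another annotated gene. No source used here says whether strand entered the counting, so reads that fall within the shared bases cannot be told apart. The bases shared with any 1 gene came to between 0.505% of the member's exons for Yars and 22.9% for Iars2. That share is not a share of reads, because reads here come from the 3′ ends of transcripts. For Iars2 with Rab3gap2, Aars with Exosc6 and Fars2 with Nrn1, the shared bases reach the 3′ end of a member transcript (0 bases from it). How many reads of these members fall there was not tested.

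The other members are given by group. In the multi-synthetase complex, Dars, Eprs, Iars, Kars, Lars (leucine), Mars1 (methionine), Qars (glutamine) and Rars (arginine) had mean levels from 46.1 CPM for Mars1 to 240 CPM for Eprs. Their median log2 fold change was -0.10, with 2 above and 6 below 0, none passing, and the 12 cytosolic members outside the complex had a median of -0.03, with 5 above and 7 below. Summed, the complex enzymes had 1032, 1133 and 1097 CPM in males and 1078, 1074 and 1203 CPM in females, which overlapped. The phenylalanine enzyme is built of subunits from Farsa and Farsb, which had log2 fold changes of 0.09 ± 0.15 and 0.16 ± 0.15; the subunit levels were 100 CPM for Farsa and 77.7 CPM for Farsb, or 22.1 and 29.6 CPM per kb. By structural family, the 9 cytosolic members of class I alone had a median of -0.04 and the 10 of class II alone one of -0.00, with 2 and 5 above 0. Among the tested mitochondrial members the medians were 0.09 over the 8 of class I and -0.04 over the 6 of class II.

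Of the complex's 3 scaffold genes 2 were tested, and both had log2 fold changes above 0 that did not pass. Aimp1 had 126, 161 and 157 CPM in males and 124, 127 and 98.5 CPM in females, with a log2 fold change of 0.33 ± 0.14 (adjusted p = 0.351, edgeR's quasi-likelihood test). Eef1e1 (also known as AIMP3) had 82.7, 121 and 84.3 CPM in males and 63.6, 66.4 and 60.03 CPM in females, every male library above every female one. Its log2 fold change was 0.57 ± 0.16 (adjusted p = 0.136); without male replicate 1 it was 0.67 and passed (adjusted p = 0.0175), and without male replicate 2 it was 0.40 (adjusted p = 0.556), all by the same test. Aimp2 had at most 3 counts in a library and was not tested. The difference between scaffolds and enzymes was not itself tested.

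The 5 members with the composite element had log2 fold changes below 0 with all libraries, from -0.22 for Gars to -0.03 for Aars, with a median of -0.14, and none passed. Leaving out 1 library turned the sign of 3 of the 5: Aars was at 0.11 without male replicate 2, Tars at 0.04 without female replicate 3 and Yars at up to 0.02 (without female replicate 2). They summed to 399, 414 and 404 CPM in males and 450, 416 and 483 CPM in females, all males below all females, the nearest at 414 and 416 CPM. Over the 176 tested genes with the element in their window the median was -0.04, with 2 called higher and 1 lower. Over the 6543 without it the median was -0.01, with 27 called higher and 5 lower.

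Of the list of ATF4 and amino acid response genes 17 were tested, and 0 passed in either direction. Their median log2 fold change was 0.04, with 9 above and 8 below 0. Atf4, the transcription factor itself, had 312, 301 and 327 CPM in males and 264, 248.6 and 222 CPM in females, all males above all females, with a log2 fold change of 0.36 ± 0.12 (adjusted p = 0.228, edgeR's quasi-likelihood test). The mitochondrial serine enzyme Shmt2 had 214, 191 and 166 CPM in males and 213, 205 and 199 CPM in females, which overlapped.

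Others on the list, named after their values were seen, lay the other way from Atf4. Mthfd2, a mitochondrial folate enzyme, had 64.1, 44.9 and 55.4 CPM in males and 73.3, 71.8 and 81.6 CPM in females. The amino acid transporters Slc7a5 and Slc1a5 also had every male library below every female one. The log2 fold changes of the 3 genes were -0.44 ± 0.16, -0.42 ± 0.16 and -0.34 ± 0.14, and the adjusted p from edgeR's quasi-likelihood test was 0.277, 0.285 and 0.33. The libraries did not overlap in 8 of the 17 genes, 5 with males above (Atf4, Ddit3, Phgdh, Psph and Pycr1) and 3 with males below, against 7.57% and 8.03% of all tested genes.

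**Figure D5:**
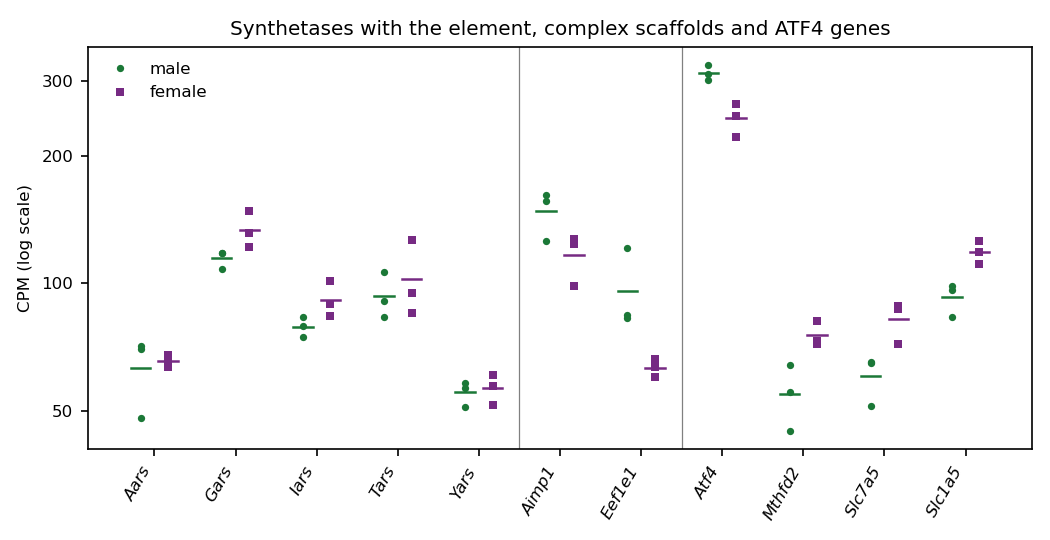
Level in CPM on a log scale of the 5 synthetase genes with the composite element (left of the first grey line), 2 scaffolds of the multi-synthetase complex (between the lines), and Atf4 with 3 amino acid response genes chosen after their values were seen (right). The 3 were those of the list with all males below. Ddit3, Phgdh, Psph and Pycr1 of the same list, which had all males above as Atf4 did, are not drawn. Points are libraries (3 male, drawn left, and 3 female, drawn right) and short bars are means of 3; Atf4 and Eef1e1 have all male points above the female ones, and Gars, Iars, Mthfd2, Slc7a5 and Slc1a5 have all male points below.

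Upstream and beside the synthetases, no gene passed either. Of the eIF2 kinases and phosphatase regulators 8 were tested, with 3 above and 5 below 0; Eif2s1, a subunit of eIF2, had 156, 208 and 192 CPM in males and 177, 158 and 191 CPM in females, and Ppp1r15b, which guides the phosphatase of eIF2, had a log2 fold change of -0.14 ± 0.16. Of the mitochondrial amidotransferase and formyltransferase genes, which complete glutaminyl-tRNA and initiator tRNA in the mitochondrion, all 4 were tested, with log2 fold changes from -0.24 for Gatc to 0.18 for Qrsl1. Of the other charging, proofreading and handling genes 13 were tested, with 7 above and 6 below 0. In that list Ssb, the La protein that binds new tRNA ends, had the highest level, at 318, 294 and 423 CPM in males and 254, 303 and 414 CPM in females. Xpot, which exports tRNA from the nucleus, had a log2 fold change of -0.25 ± 0.17. Ptrh2, a peptidyl-tRNA hydrolase named after its values were seen, had 67.6, 71.5 and 77.1 CPM in males and 44.3, 52.8 and 51.6 CPM in females. Its log2 fold change of 0.53 ± 0.16 did not pass (adjusted p = 0.178, edgeR's quasi-likelihood test).

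Set beside the ribosome that uses the charged tRNA, the synthetases had other values. How many ribosomal protein genes passed turned mostly on male replicate 1, while the median of each list was above 0 in every fit. With all libraries, the 80 tested cytosolic ribosomal protein genes had a median log2 fold change of 0.38, all above 0, and the 74 tested mitochondrial ribosomal protein genes one of 0.17, with 55 above 0; 0 genes of either list passed after adjustment. At an unadjusted p under 0.05 the counts were 56 of 80 and 13 of 74, against 0 of the 34 synthetases and 11.3% of all tested genes. Cytosolic ribosomal protein genes summed to 132034, 200665 and 168390 CPM in males and 127797, 136705 and 124708 CPM in females, with male replicate 1 among the females. Without it their median was 0.51 and 60 of 80 passed, all higher in males. Among all 8989 genes tested in that fit, 337 were called higher in males and 78 lower. Few of all genes passed there, so the 0 synthetases that passed do not set the synthetases apart from other genes. Leaving out male replicate 2 instead, the median of the cytosolic ribosomal list was 0.22 and 0 passed. The mitochondrial list stood at 0.25 without male replicate 1, with 7 of 75 passing, and at 0.11 without male replicate 2, with 0 passing. The difference between the lists was not tested, and these refits of the ribosomal lists were chosen after seeing the data.

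As a share of all counts of a library, before any scaling, the 36 synthetases made up 0.269%, 0.246% and 0.256% in males and 0.278%, 0.272% and 0.295% in females. On that scale every male library lay below every female one, with means of 0.257% ± 0.011 and 0.282% ± 0.012 (SD, n = 3 each). After TMM scaling the sums were 2621, 2781 and 2716 CPM in males and 2682, 2722 and 2922 CPM in females, and the ranges overlapped. With library size only, the median log2 fold change over all tested genes was also below 0, at -0.09. Cytosolic ribosomal protein genes took a mean of 15.7% of counts in males and 13.2% in females. The part of the difference in share that goes with this shift was not tested.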

How the data were processed

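RNA was measured in 3 male and 3 female libraries of sorted marrow cells, grouped by the sample titles. Per the labels' protocols, barcoded oligo-dT primers marked the samples at reverse transcription, before mixing and PCR. The authors deposited unnormalised whole-number read counts for every gene, per the file headers. The submitters' processing notes name, with no role or order, the tools DESeq2, featureCounts 2.0.1, HISAT2 2.2.1, Trim Galore 0.6.7 and UMI-tools and the builds GRCh38 and GRCm38. Collapsing of molecular identifiers and use of strand are not given in the sources that were read. PCR copies may therefore be among the counts, and the counting error given here may be too small.

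Genes were filtered with edgeR 4.0.16 in R 4.3.3 (filterByExpr, minimum count 10, minimum total 15), scaled by TMM and tested over all 8460 genes with edgeR's quasi-likelihood F test, Benjamini-Hochberg threshold 0.05. The standard error is the fold change over the root of F, and 95% intervals use the test's degrees of freedom. CPM are per 1e+06 scaled counts of the tested genes. Lengths are merged exons of GENCODE M21 (GRCm38), and promoter windows are RefSeq's (GRCm38.p6). In 23 windows of the 27 members with a window, the bases after the start matched the start of an annotated transcript. On simulated data with 200 of 8460 genes changed between male and female libraries, the share recovered was 15.9% at a log2 change of 0.5, 73.8% at 1 and 100% at 2; 127 genes were called, 6 of them unchanged.

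Members, lists and alternatives were chosen with earlier results of these data known. Values per library are given for the 4 members of each compartment with the smallest p, the 3 with the highest level and those with no overlap between male and female libraries, and, as values per library or as a fold change, for the 2 highest genes of each context list of the charging and amino acid response pathways; cell type markers are given by list sums and examples chosen after their values were seen. No library was a copy of another: within a sex, chi-square per degree of freedom ran from 1.98 to 4.09. Alternatives were other scalings, filters, DESeq2 1.42.0, limma-voom (limma 3.58.1), a replicate block, and leaving out each library.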

Additional observations from a re-analysis of the deposited data

How the results depend on the processing

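No member passed the threshold under any of 14 alternatives: 444 of 476 values kept their sign and side, and 32 values in 14 members changed sign. Genes higher in males over all tested genes numbered 36, against 81 with no filter, 56 with the replicate block and 19 to 337 when 1 library was left out, 337 without male replicate 1. Genes lower in males numbered 13, against 23 with library size only, 35 with no filter, 7 by DESeq2, 8 by limma-voom, 22 with the replicate block and 4 to 78 when 1 library was left out. Replicate numbers were not taken to pair the samples: same-numbered libraries deviated together by correlations of 0.026, 0.029 and 0.044, each library correlating best with its own number, and the block called 0 members. The median log2 fold change of cytosolic members, -0.04, was -0.13 with library size only and -0.08 to 0.02 when 1 library was left out. That of mitochondrial members, 0.07, was -0.0154 with library size only and -0.0496 to 0.114 when 1 library was left out; library size only moves the median of all genes to -0.09. The ratio of cytosolic to mitochondrial level, 5.26, was 5.99 per kilobase, 4.48 without Gars and Kars, 3.76 over matched pairs and 5.19 to 5.32 when 1 library was left out. With library size only the sign changed for Hars (-0.0696), Qars (-0.0330), Wars (-0.0124), Aars2 (-0.0130), Fars2 (-0.0178), Iars2 (-0.00048) and Eif2s1 (-0.0286), all near 0 and carried below it by that shift of all genes. It changed with no filter for Hars (-0.00904) and by limma-voom for Cars (0.0435), and the cause of these was not tested. When 1 library was left out, log2 fold changes that changed sign ran from -0.114 to 0.106 for Aars, -0.339 to 0.145 for Cars, -0.0257 to 0.167 for Farsa, -0.0823 to 0.107 for Hars, -0.245 to 0.032 for Mars1, -0.0326 to 0.119 for Qars, -0.124 to 0.0658 for Rars, -0.255 to 0.0405 for Tars, -0.0326 to 0.184 for Wars, -0.103 to 0.0226 for Yars, -0.0114 to 0.169 for Aars2, -0.0892 to 0.16 for Fars2, -0.0673 to 0.296 for Iars2, -0.17 to 0.0977 for Mars2, -0.0119 to 0.185 for Eif2s1 and -0.0772 to 0.312 for Ssb. Of the cytosolic ribosomal protein genes, 0 passed with the main settings, 12 with no filter, 1 with the replicate block and 60 without male replicate 1, all counted after seeing the data. Depth limits the mitochondrial members most, whose counts fall to 2 in a library.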
